A study of Mus musculus with 6 samples.

Results

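The replication-dependent histone genes were taken as every row of the deposited count table whose symbol begins with *Hist1h*, *Hist2h*, *Hist3h* or *Hist4h* followed by the class 1, 2a, 2b, 3 or 4. This gave 68 of the 23159 genes of the table, with 6 of class H1, 18 of H2A, 19 of H2B, 12 of H3 and 13 of H4. One of them, *Hist3h2bb-ps*, is an annotated pseudogene. RNA was measured in growth plate cells of mice at postnatal day 49. All of them carried the transactivator allele Peli2(Col2a1-tTA/Col2a1-tTA), the label allele Col1a1(TRE-H2B-GFP/TRE-H2B-GFP), the recombinase transgene Col2a1-creER/Col2a1-creER and the reporter R26R(tdTomato/tdTomato). Doxycycline was given from P21 to P49, and tamoxifen at P46 and P47. Label-retaining chondrocytes (LRCs) were sorted among CD45- cells as H2B-GFP(high) tdTomato+ and non-LRCs as H2B-GFP(mid-low) tdTomato+ cells, in 3 experiments with 1 library of each group from pooled littermates, which the study treats as pairs. The *Col2a1* promoter drives both the transactivator and the creER, so the tdTomato+ gate covers cells that used this promoter. The label alone does not, since the study saw low H2B-EGFP in osteoblasts and osteocytes without the transactivator. It added the tdTomato mark for this reason, and among marked cells saw virtually no label without the transactivator. The retained label is itself an H2B fusion whose transgene RNA was not analysed here.

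Core histones H2A, H2B, H3 and H4 form the nucleosome, and the linker histone H1 binds the DNA between nucleosomes. Replication-dependent genes supply these proteins mainly in S phase, when new chromatin is assembled, and lie in clusters of near-identical copies. Their mRNAs usually have no intron and no poly(A) tail and end shortly after a stem-loop that is bound by SLBP. Some of these genes are also known to give polyadenylated transcripts that continue past the stem-loop, as in differentiated cells. Replacement variants such as H3.3 come from ordinary polyadenylated genes. The cDNA kit named for these libraries primes on poly(A).

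The annotated transcripts of the family showed where that stem-loop lies. The hairpin-forming run of 16 bases most common among the members is the one in capitals for *Hist1h1c*. It was found in 26 of the 67 protein-coding members (38.8%). Of the 21901 protein-coding genes in GENCODE vM21, members included, 0.128% held it, and 0.00916% of those that are not members. A wider form, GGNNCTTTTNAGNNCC, in which N is any base, was found in 44 members (65.7%) and in 0.128% of the 21834 protein-coding genes that are not members. The forms were read on the sense strand of the transcripts, and the wider form includes the first. The first was picked as the most common among members and the wider form frees some of its bases. The higher share in members was thus partly set by this choice. In these 44 members the run began between 22 and 59 bases after the stop codon, with a median of 32. The windows of 30 bases below, on GRCm38, are those of members whose levels are described further on, at least 1 for each class and cluster, and capitals mark the stem-loop run.
*Hist1h1c*, chr13:23739505-23739534, plus strand: tccaaaaGGCTCTTTTCAGAGCCaccactc
*Hist1h1e*, chr13:23621775-23621804, minus strand: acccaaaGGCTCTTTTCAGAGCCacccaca
*Hist3h2a*, chr11:58955165-58955194, plus strand: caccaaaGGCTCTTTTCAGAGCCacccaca
*Hist1h2bm*, chr13:21722499-21722528, plus strand: acacaaaGGCTCTTTTCAGAGCCactaagc
*Hist2h3c1*, chr3:96247320-96247349, plus strand: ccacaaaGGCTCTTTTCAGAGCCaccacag
*Hist1h4d*, chr13:23581943-23581972, plus strand: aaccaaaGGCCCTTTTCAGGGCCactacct
*Hist1h4i*, chr13:22040959-22040988, minus strand: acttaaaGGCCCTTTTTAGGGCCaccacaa
*Hist4h4*, chr6:136803991-136804020, minus strand: ccacaaaGGCCCTTTTCAGGGCCcacaaag
The run was the same in the H1, H2A, H2B and H3 genes shown, 1 base pair of the stem differed between the H4 genes and these, and *Hist1h4i* also differed from all others within the loop. Annotated transcripts of these genes differed far more in what follows. After the run, 46 bases were annotated in *Hist1h2bm*, 330 in *Hist1h4i*, 770 in *Hist1h4d*, 840 in *Hist1h1c*, 1153 in *Hist1h1e*, 1167 in *Hist2h3c1*, 1643 in *Hist3h2a* and 2445 in *Hist4h4*. Of the 24 members without the run, 15 have annotated transcripts that end within 2 bases of the stop codon, so the letters after it could not be read.

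Total counts lay between 18943789 and 129559872 per library, and the smallest was the LRC library of experiment 2, in which 1 count was worth 0.0478 CPM (counts per 1000000 counts, after TMM normalization) and 1731 of the 13728 genes tested had 0 counts, against 4 to 365 in the others. A count of 0 there allows up to 0.143 CPM, the value of 3 counts, and such limits cover counting error only. About 10000 LRCs and 50000 non-LRCs went into each library per the labels, so cell number cannot be told apart from group. *Col2a1* averaged 126190 CPM in LRCs (63386 to 189481 CPM) against 134395 CPM in non-LRCs (99286 to 185225 CPM). Of 9 chondrocyte markers, 8 had fitted values lower in LRCs (edgeR), 7 of them in each experiment, and *Sox9* was higher. Over all genes tested, 56% were lower and 26.1% were lower in each experiment. The median log2 difference of the 9 was -0.43, against -0.10 over all genes. The globin genes *Hba-a1*, *Hba-a2* and *Hbb-b2* and the endothelial genes *Cdh5* and *Kdr* had 0 counts in all 6 libraries, and 7 leukocyte markers summed to between 7.55 and 25.2 CPM in LRCs and between 7.08 and 11.3 CPM in non-LRCs.

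Most histone genes had few or no counts. Of the 68, 15 had 0 counts in all 6 libraries, 33 had at most 3 counts in every library, 29 reached 10 counts in at least 1 library, and 9 did so in every library. The number of members with 10 counts or more was 19, 13 and 15 in LRCs, by experiment, against 23, 18 and 17 in non-LRCs. When every library was thinned to the smallest total, these numbers were 8, 13 and 11 in LRCs and 12, 13 and 11 in non-LRCs. The groups overlapped both before and after thinning.

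Together the members took between 0.00989% and 0.0320% of the counts of a library, and 2 genes made up most of that. *Hist1h1c*, which encodes the linker histone H1.2, held 52.6% of the 68 genes' counts over the 6 libraries, and *Hist1h2bc*, an H2B gene, held 33.4%. Per library, both genes together held between 80.6% and 90.9%, and in experiment 2 *Hist1h2bc* held more than *Hist1h1c*, 52.6% against 38.3% in LRCs and 41.5% against 39.1% in non-LRCs. *Hist1h1e*, the H1.4 gene, came next with 3.36%, followed by *Hist3h2a*, an H2A gene outside the large clusters, with 2.40%. By cluster, the 54 genes on chromosome 13 (*Hist1*) had 52932 counts, the 10 on chromosome 3 (*Hist2*) 1499, the 3 on chromosome 11 (*Hist3*) 1349 and the single gene on chromosome 6 (*Hist4*) 307.

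Detection differed with what is annotated after the stop codon. Among the 24 protein-coding members with more than 200 annotated bases there, 15 reached 10 counts in at least 1 library (62.5%), and these 24 genes held 98.04% of the family's counts. Among the 43 with 200 bases or fewer, 14 did (32.6%), and they held 1.96%. The 200 bases were chosen after the values were seen, and *Hist1h2bg* (200 bases) and *Hist1h2ae* (199 bases) lie just at or under them. With 100 bases the shares were 58.1% and 30.6%, and with 500 bases 76.5% and 32.0%. These lengths are from GENCODE vM21, and the annotation that was counted is not given in the sources used here. RefSeq lists shorter genes for several, such as *Hist1h1c* (725 bases against 1560) and *Hist3h2a* (508 against 2146), but not for *Hist2h2be* (2667 against 2620). The split was not scaled by length. Per kilobase of exon, the median was 0.0674 CPM with more than 200 bases and 0.0262 CPM with 200 or fewer.

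Near-identical sequence moved with the same measure. For each member, the share of its 50-base windows found at a single place among all annotated transcripts was computed, 50 bases being the read length. The share ranged from 0% in *Hist2h2aa2* to 100% in *Hist1h1b*, with a median of 53.6%. Of the 15 members with 0 counts in all libraries, 14 had fewer than 50% of their windows unique, and *Hist1h4j* had 75.4%. Of the 30 members under 50%, 6 reached 10 counts in a library, against 23 of the 38 others. Within the 37 protein-coding members at or above 50%, 14 of the 20 with more than 200 bases after the stop codon reached 10 counts (70.0%), against 9 of the 17 with fewer (52.9%). Below 50% these numbers were 1 of 4 and 5 of 26. Reads that map to several places were not counted by the authors, so the low counts of such copies are no measure of their expression.

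**Figure D1:**
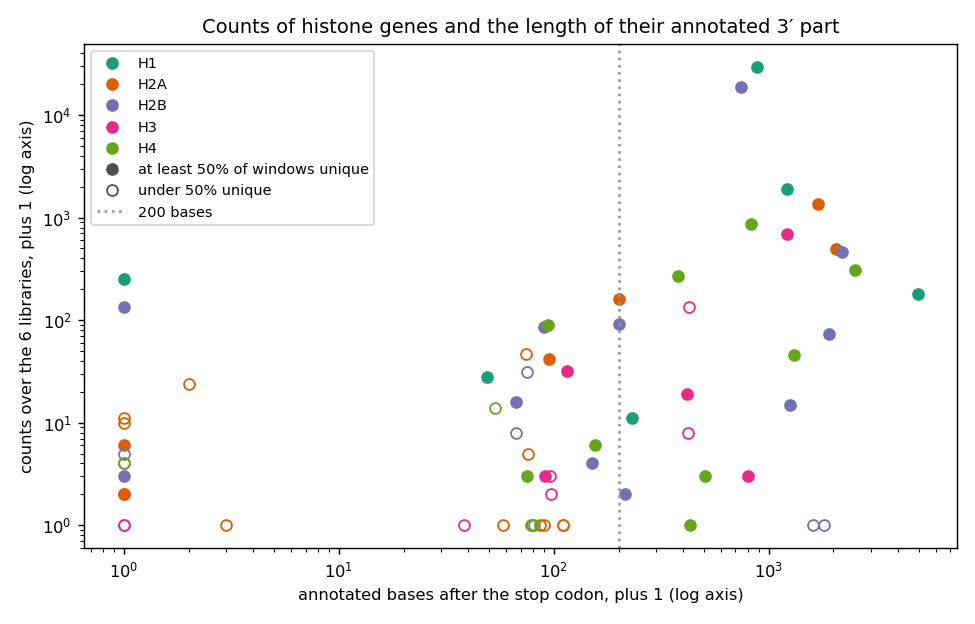
Counts over the 6 libraries plus 1 (log axis) against annotated bases after the stop codon plus 1 (log axis) for the 67 protein-coding members, coloured by class, with filled circles where at least 50% of the 50-base windows are unique and a dotted line at 200 bases. The 24 genes to the right of the line hold 98.04% of the family's counts, and the 2 highest points are *Hist1h1c* and *Hist1h2bc*.

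Members known for expression in the testis were at or near 0. *Hist1h1t* had 10 counts over all libraries, *Hist1h2aa* 5 and *Hist1h2ba* 2. These 3 genes were named after their values were seen. Low counts are not particular to them, as 33 of the 68 members had at most 3 counts in every library.

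The comparison of LRCs with non-LRCs asks whether slow-cycling chondrocytes differ in these genes from the cells that diluted their label. In this bulk RNA, fewer cells of a type and less RNA per cell cannot be told apart. Only 17 members passed edgeR's filter on low counts: 4 of class H1, 3 of H2A, 5 of H2B, 2 of H3 and 3 of H4. Of the 17, 0 were called at an adjusted p below 0.05 (edgeR's quasi-likelihood test with the experiment as a block, Benjamini-Hochberg over 13728 genes), where 1.28% of all genes tested were called, 0.903% higher and 0.379% lower in LRCs. At an unadjusted p below 0.05, 1 member was lower and 0 were higher in LRCs, against 9.53% and 8.89% of all genes. DESeq2 with the block also called 0 members, although it called 9.49% of all genes it fitted, 4.74% as lower in LRCs, and limma-voom called 0, against 9.91% of all genes. At an unadjusted p below 0.05 DESeq2 gave 4 members lower in LRCs (*Hist1h1b*, *Hist1h1d*, *Hist1h1e* and *Hist1h4d*), where 10.4% of all genes it fitted were, and limma-voom gave 3 of these, without *Hist1h1b*, where 12.9% were. Neither gave a member that was higher. DESeq2 gave an adjusted p for 15 of the 53 members it fitted.

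By direction, 12 of the 17 had a fitted value lower in LRCs and 5 higher, where 56% of all genes tested were lower. Their median log2 difference was -0.47, against -0.10 over all genes. With offsets for GC content and gene length, 9 were lower and 8 higher, and the medians were -0.07 for the members and 0.09 for all genes. Lower in LRCs in each of the 3 experiments were 7 of the 17, against 26.1% of all genes tested, and 1 was higher in each, against 20.4%. The CPM of the groups did not overlap for 3 members lower in LRCs (10.3% of all genes) and for 1 member higher in LRCs (8.4% of all). Of these 4, *Hist1h1d* and *Hist1h2bm* passed the filter through the group in which they were high, so that their separation was partly set by the filter. The same holds for their direction in each experiment, where *Hist1h1d* is among the 7 lower and *Hist1h2bm* is the 1 higher. *Hist2h3c1* is among the 3 and the 7 after TMM, but not with raw totals in place of TMM. Within experiments 1, 2 and 3, 14, 11 and 9 of the 17 were lower in LRCs.

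**Figure D2:**
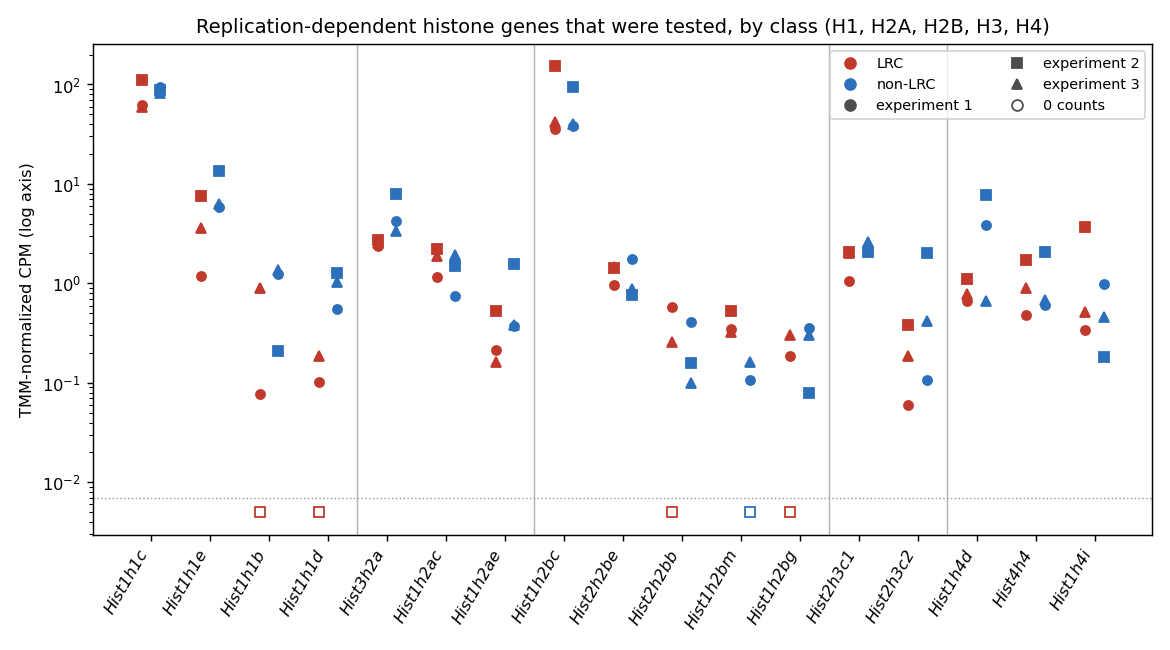
TMM-normalized CPM (log axis) of the 17 tested members in each library, grouped by class, with LRCs in red, non-LRCs in blue and a symbol per experiment; open symbols under the dotted line have 0 counts. *Hist1h1c* and *Hist1h2bc* stand above all others, and the groups overlap for 13 of the 17 genes.

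Reads of the linker histones could be placed best, with between 91.5% and 100% of the windows unique in each member. *Hist1h1c*, a single exon at chr13:23738808-23740367, had 62.9, 111 and 59.2 CPM in LRCs of experiments 1, 2 and 3 and 94.6, 88.2 and 82.7 CPM in non-LRCs. The non-LRC values lay close together, and the LRC values lay on both sides of them. The fitted log2 difference, LRCs minus non-LRCs, was -0.25 (s.e., the standard error, 0.22, edgeR adjusted p = 0.601), and 0.022 with GC and length offsets. It rested on single experiments, at -0.54 without experiment 2 (adjusted p = 0.0923) and -0.079 without experiment 1 (adjusted p = 0.938, edgeR).

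*Hist1h1e*, at chr13:23620629-23622558, was lower in LRCs in each pair. It had 138, 158 and 156 counts in LRCs and 606, 515 and 314 in non-LRCs, or 1.18, 7.55 and 3.63 CPM against 5.86, 13.5 and 6.32 CPM. The groups overlapped, because the LRC library of experiment 2 was above the non-LRC libraries of experiments 1 and 3. Its log2 difference of -1.31 (standard error 0.48) had an unadjusted p of 0.035 and an adjusted p of 0.231 (edgeR), the lowest adjusted p of the family. It shares exon sequence on the same strand with *Hist1h2be*, so that the counts of both are uncertain.

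*Hist1h1d*, the H1.3 gene at chr13:23553262-23560686, had 12, 0 and 8 counts in LRCs and 57, 49 and 51 in non-LRCs. Every LRC value, at most 0.186 CPM, was below every non-LRC value, at least 0.552 CPM. The fitted log2 difference of -3.36 had a standard error of 1.54 (adjusted p = 0.317, edgeR) and rests in part on the 0, so it is no bound on the difference. It was -2.43 without experiment 2, -4.19 without experiment 1 and -4.27 without experiment 3. *Hist1h1b*, the H1.5 gene, had 9, 0 and 39 counts in LRCs and 129, 8 and 68 in non-LRCs. It was also lower in LRCs in each pair, but its groups overlapped (edgeR log2 difference -2.82, s.e. 1.55, adjusted p = 0.397, and -4.48 without experiment 3).

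Taken as a class, H1 was 64.3, 119 and 64.1 CPM in LRCs against 102, 104 and 91.6 CPM in non-LRCs. *Hist1h1c* made up 92.6% of this sum. Without it, the other 5 genes summed to 1.39, 7.55 and 4.89 CPM in LRCs against 7.70, 15.4 and 8.81 CPM in non-LRCs. This smaller sum was lower in LRCs in each pair, by 2.47, 1.03 and 0.85 on the log2 scale, and no LRC library reached the lowest non-LRC library. The sums have no p, and 3 pairs could not go below an exact two-sided p of 0.25. With raw totals in place of TMM, each class sum kept the number of pairs lower in LRCs. However, the groups of H1 without *Hist1h1c*, of H2A, and of H3 with and without *Hist2h3c1* then overlapped.

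Of the H2A genes, *Hist3h2a*, at chr11:58954685-58956830, had the most counts and was even among LRCs, at 2.38, 2.72 and 2.54 CPM. In non-LRCs it had 4.20, 7.88 and 3.36 CPM. The groups did not overlap, and the difference did not pass the test (edgeR log2 difference -0.92, s.e. 0.53, adjusted p = 0.417). An exon of *Trim17* overlaps it on the same strand.

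*Hist1h2ac* had 1.17, 2.198 and 1.88 CPM in LRCs against 0.745, 1.49 and 1.93 CPM in non-LRCs, which overlapped (edgeR log2 difference 0.39, adjusted p = 0.820). *Hist1h2ae* had 25, 11 and 7 counts in LRCs and 39, 60 and 19 in non-LRCs, lower in LRCs in each pair (edgeR log2 difference -1.20, s.e. 1.10, adjusted p = 0.616). Antisense genes are annotated over all 3 of these H2A genes, and the strand setting of the count is not given in the sources used here. The class sum was 3.91, 5.45 and 4.75 CPM in LRCs against 5.85, 12.3 and 5.93 CPM in non-LRCs. Its groups did not overlap, with *Hist3h2a* holding 62.8% of it. Without *Hist3h2a* they did, at 1.53, 2.72 and 2.21 CPM against 1.65, 4.40 and 2.57 CPM.

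The H2B sum was higher in LRCs in 2 of the 3 pairs, with overlapping groups. *Hist1h2bc* had 36.0, 152 and 41.5 CPM in LRCs against 38.3, 93.6 and 40.0 CPM in non-LRCs. The libraries of experiment 2 were the highest in both groups, and in experiments 1 and 3 the paired libraries differed by -0.0897 and 0.053 on the log2 scale. The fitted log2 difference was 0.22 (s.e. 0.20, edgeR adjusted p = 0.616), was 0.77 with GC and length offsets, and was -0.018 without experiment 2. Whether reads of the H2B-GFP transgene were counted under *Hist1h2bc* or another H2B gene was not tested. The 1 annotated transcript of *Hist1h2bc* differs from those of most members. It has 2 exons and spans chr13:23684199-23692908, 742 bases follow the stop codon, and it does not hold the stem-loop run. Of the 68 members, 63 have a single exon.

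*Hist2h2be*, at chr3:96221119-96223738, is likewise annotated with a long end, of 2192 bases and without the run. It had 0.959, 1.43 and 1.47 CPM in LRCs against 1.77, 0.759 and 0.885 CPM in non-LRCs, so that the direction differed between experiments (edgeR log2 difference 0.26, adjusted p = 0.905). *Hist1h2bm* had 41, 11 and 14 counts in LRCs and 11, 0 and 8 in non-LRCs. Every LRC value, at least 0.326 CPM, was above every non-LRC value, at most 0.161 CPM. It was the only tested member higher in LRCs in each pair, on few counts and with 56.2% of its windows unique (edgeR log2 difference 2.43, s.e. 1.83, adjusted p = 0.537). As it passed the filter through the LRC libraries, this direction was partly set by the filter.

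*Hist2h2bb* had 68, 0 and 11 counts in LRCs and 42, 6 and 5 in non-LRCs, and its fitted value of -0.10 changed sign with the processing. *Hist1h2bg*, named after its values were seen because it is the remaining tested member, had 22, 0 and 13 counts against 37, 3 and 15 (edgeR log2 difference -0.995, s.e. 1.61, adjusted p = 0.782). As a class, H2B summed to 38.5, 154 and 44.6 CPM in LRCs against 41.2, 94.96 and 42.2 CPM in non-LRCs, with *Hist1h2bc* at 95.3% of it. Without *Hist1h2bc* the sums were 2.47, 1.96 and 3.12 CPM and 2.86, 1.39 and 2.17 CPM. The groups overlapped in both forms.

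Only *Hist2h3c1* and *Hist2h3c2* were tested among the H3 genes, and they share sequence with each other. *Gm20634*, a transcript without a protein, covers *Hist2h3c1* on the same strand. *Hist2h3c1* had 1.05, 2.05 and 2.02 CPM in LRCs against 2.18, 2.07 and 2.59 CPM in non-LRCs. After TMM, every LRC library was below every non-LRC library (edgeR log2 difference -0.47, s.e. 0.70, adjusted p = 0.760). The difference within experiment 2 was only -0.0091 on the log2 scale. With raw totals or DESeq2 size factors in place of TMM, the LRC library of experiment 2 was above its paired library and the groups overlapped. *Hist2h3c2* had 7, 8 and 8 counts in LRCs and 11, 78 and 21 in non-LRCs, lower in LRCs in each pair (edgeR log2 difference -1.47, s.e. 1.17, adjusted p = 0.561). Only 36.5% of its windows are unique, against 65.3% in *Hist2h3c1*.

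The sum over the 12 H3 genes was 1.27, 2.44 and 2.33 CPM in LRCs against 2.58, 4.11 and 3.22 CPM in non-LRCs. It was lower in LRCs in each pair, by 1.03, 0.75 and 0.47 on the log2 scale, and the groups did not overlap. Without *Hist2h3c1* it was 0.214, 0.382 and 0.302 CPM against 0.406, 2.04 and 0.624 CPM, without overlap after TMM but overlapping with raw totals. These rest on 25, 8 and 13 counts against 42, 78 and 31, and the 78 were all of *Hist2h3c2*. Over the 5 H3 genes with at least 50% of windows unique, a set chosen after the values were seen, it was 1.16, 2.05 and 2.14 CPM against 2.48, 2.07 and 2.68 CPM, and the groups overlapped.

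**Figure D3:**
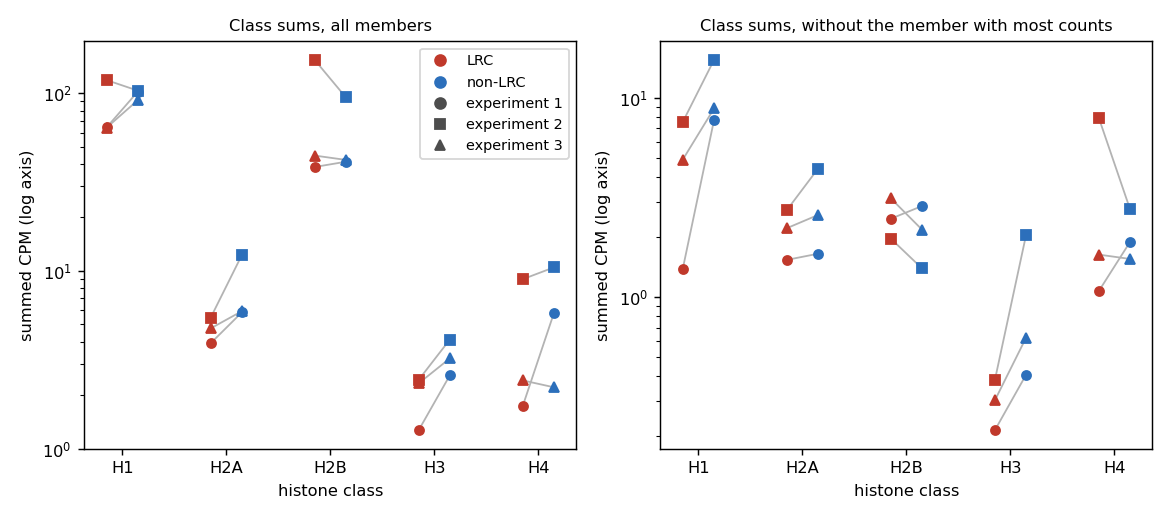
Summed CPM (log axis) per histone class over all members (left) and without the member with most counts (right), with LRCs in red, non-LRCs in blue and a line joining the libraries of an experiment. The H3 sums of LRCs lie below those of non-LRCs in both panels, and the H1 sums do so only without *Hist1h1c*.

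Among the H4 genes, *Hist1h4d*, at chr13:23581598-23582735, had 77, 23 and 34 counts in LRCs and 402, 295 and 33 in non-LRCs. In CPM this was 0.659, 1.10 and 0.791 against 3.89, 7.72 and 0.664, so that experiments 1 and 2 gave a large difference and experiment 3 none of that direction. Its log2 difference was -1.78 (s.e. 0.92, edgeR adjusted p = 0.368), -1.21 without experiment 2 and -2.66 without experiment 3. *Hist1h4i* had 0.342, 3.68 and 0.512 CPM in LRCs against 0.987, 0.183 and 0.463 CPM in non-LRCs. The LRC library of experiment 2 alone set its positive value of 0.71 (s.e. 1.60, edgeR adjusted p = 0.849), which was -0.71 without that experiment. *Hist4h4* had 0.479, 1.72 and 0.907 CPM in LRCs against 0.610, 2.07 and 0.684 CPM in non-LRCs, highest in experiment 2 in both groups (edgeR log2 difference -0.07, adjusted p = 0.974, and 0.33 with GC and length offsets). The H4 sum was 1.73, 8.98 and 2.42 CPM in LRCs against 5.78, 10.5 and 2.21 CPM in non-LRCs, and the groups overlapped. Without *Hist1h4d* the other 12 genes summed to 1.07, 7.88 and 1.63 CPM against 1.89, 2.75 and 1.55 CPM, lower in LRCs in 1 pair only, and the mean log2 difference turned from -0.61 to 0.26.

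**Figure D4:**
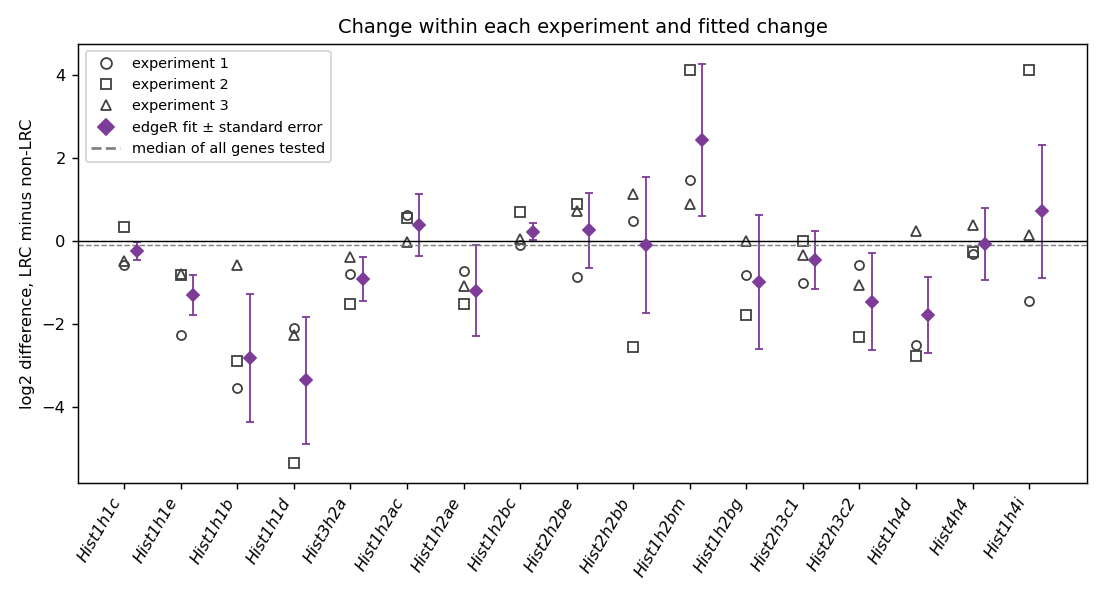
Log2 difference of LRCs minus non-LRCs for the 17 tested members in each experiment (open symbols) and as fitted by edgeR with its standard error (purple); the dashed line is the median of all genes tested, -0.10. The differences add a prior count of 2 scaled to the library, on which points with a library at 0 depend, and 12 of the 17 fitted values lie below 0 (9 with GC and length offsets).

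Over all 68 members, counts summed to 110, 290 and 118 CPM in LRCs against 158, 225 and 145 CPM in non-LRCs. Without *Hist1h1c* and *Hist1h2bc*, the other 66 genes summed to 10.8, 26.4 and 17.5 CPM in LRCs against 24.8, 43.7 and 22.3 CPM in non-LRCs. The second sum was lower in LRCs in each pair, by 1.20, 0.73 and 0.35 on the log2 scale, while the groups overlapped because of the LRC library of experiment 2.

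By CPM per kilobase, the most abundant replacement variants stood above every member of the family. The kit primes on poly(A), which mRNAs of the family usually lack, and reads mapping to several places were not counted. The levels of variants and members are thus unlike measures. Per kilobase of exon, *H3f3b* and *H3f3a*, which encode H3.3, averaged 647 and 97.8 CPM, against 1.09 for *Hist2h3c1*, the highest of the H3 members. *H2afz*, the H2A.Z gene, averaged 131 CPM per kilobase, against 1.79 for *Hist3h2a*. *H1f0*, the H1.0 gene, averaged 127 CPM per kilobase, against 53.3 for *Hist1h1c* and 57.9 for *Hist1h2bc*, the 2 highest members. Other variants were lower than these members, such as *H1fx* at 3.45 CPM per kilobase. Of the 11 replacement variants tested, 9 were lower and 2 higher in LRCs, a median log2 difference of -0.28, and 0 called (edgeR), while GC and length offsets gave 6 lower and 5 higher. Over all genes tested in edgeR, 56% were lower, the median was -0.10 and 1.28% were called. *H1f0* (201 ± 68.3 CPM in LRCs, 323 ± 59.8 CPM in non-LRCs, given as mean ± s.d. over 3 libraries) had an adjusted p of 0.115 and *H2afz* (178 ± 64.4 against 286 ± 108 CPM) an adjusted p of 0.082 in edgeR. Both were called lower in LRCs by DESeq2, which called 4.74% of all genes as lower, and by limma-voom, which called 644 of 13728 genes as lower. They, with the other genes outside the family named for their change, were named after their values were seen. *H3f3b* had a log2 difference of -0.09 (adjusted p = 0.767) and *H3f3a* of -0.28 (adjusted p = 0.398, edgeR).

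As a share of the counts of a library that fell on H3 genes, members against *H3f3a* and *H3f3b* together, the replication-dependent genes had 0.0777%, 0.0936% and 0.102% in LRCs and 0.149%, 0.139% and 0.132% in non-LRCs, which did not overlap. For H1, against *H1f0* and *H1fx*, the share was higher in LRCs in each pair, at 32.4%, 30.2% and 23.7% against 28.0%, 23.6% and 19.3%, but the groups overlapped. For H2A, against 6 variant genes, it was 1.80%, 1.22% and 1.25% against 1.82%, 2.43% and 1.06%, so that the direction differed between pairs. These are shares of counts, not of transcripts, and no difference between classes was tested. The limits of poly(A) priming and of shared sequence apply to them too.

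As a list, the factors that make and process histone mRNA had a median near that of all genes. Of the 15 tested, 8 were lower and 7 higher in LRCs, with a median log2 difference of -0.04 and 0 called, and with GC and length offsets 5 were lower and 10 higher. Single factors ranged from -1.98 (*Zfp473*) to 0.93 (*Coil*), and 3 were lower and 3 higher in each experiment, against 26.1% and 20.4% of all genes. Only *Lsm10* had an unadjusted p below 0.05 (0.0464, adjusted p = 0.264, edgeR), where 9.53% of all genes were lower. It had 5.30, 5.16 and 5.56 CPM in LRCs against 8.44, 12.8 and 8.87 CPM in non-LRCs. *Slbp*, the stem-loop binding protein, averaged 71.3 ± 18.0 CPM in LRCs against 71.6 ± 22.4 CPM in non-LRCs, and *Eri1*, a nuclease that acts at the stem-loop, 76.8 ± 13.9 and 81.0 ± 10.2 CPM (adjusted p = 0.962 and 0.788, edgeR). Of 17 histone chaperone genes, 12 were lower and 5 higher, with a median of -0.13 and 0 called, and these counts were 5 and 12 with GC and length offsets. Beside both lists, 56% of all genes tested were lower, the median was -0.10 and 1.28% were called in edgeR. *Rbbp7* and *Nap1l1*, which bind histones, had log2 differences of -0.18 and -0.36 (adjusted p = 0.660 and 0.336, edgeR).

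DNA replication genes, whose use coincides with histone synthesis in S phase, had lower values in LRCs for 26 of the 34 tested, 19 of them in each experiment. Over all genes tested, 56% were lower and 26.1% were lower in each experiment. The median log2 difference of the list was -0.57 (-0.42 and 23 of 34 lower with GC and length offsets), against -0.10 over all genes. In edgeR 0 of the 34 were called, against 1.28% of all genes. At an unadjusted p below 0.05 were 5, all lower in LRCs, against 9.53% of all genes. DESeq2 called 6, all lower in LRCs, where it called 4.74% of all genes as lower. Of the 34, limma-voom called 4, all lower in LRCs, where it called 644 of 13728 genes as lower. *Pcna*, the sliding clamp, averaged 101 ± 36.5 CPM in LRCs against 125 ± 21.6 CPM in non-LRCs, and *Rrm1*, a ribonucleotide reductase subunit, 60.1 ± 24.3 and 76.0 ± 29.7 CPM (adjusted p = 0.326 and 0.367, edgeR). The median of the 17 tested histone genes was -0.47, and no test compared the lists. Of 5 markers of hypertrophic chondrocytes, all with fitted values lower in LRCs, *Panx3* was called (adjusted p = 0.018, edgeR) and the other 4 did not pass. *Mmp13* and *Ibsp* were higher in LRCs in experiment 1, and the summed levels of 113 to 354 CPM in LRCs and 289 to 1356 CPM in non-LRCs overlapped. Of 6 osteoblast markers, *Col1a1*, a collagen gene and the locus of the label allele, was called higher in LRCs (107 against 21.7 CPM, edgeR log2 difference 2.38, adjusted p = 0.015), and *Bglap*, *Bglap2* and *Sp7* were lower at an unadjusted p below 0.05. The part of these markers in the histone values was not tested.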

How the data were processed

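Bulk RNA was measured in 6 libraries, with groups and experiment numbers taken from the sample labels. The study pooled cells of littermates per experiment, amplified cDNA with a SMART-Seq kit and sequenced single-end reads of 50 bases. The authors aligned reads to mm10 (GRCm38) with TopHat2 2.0.13 and Bowtie2 2.2.1 and deposited raw counts of non-ambiguously mapped reads per gene from HTSeq. The gene annotation and strand setting are not given in the sources used here. The authors' size-factor-normalized and rlog tables were not used here. Members and gene lists were chosen with earlier results of these data known.

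Tests were run on the counts with edgeR 4.0.16 under R 4.3.3 (filterByExpr with a minimum count of 10, TMM, quasi-likelihood test, experiment as a block, Benjamini-Hochberg adjustment). The block follows the study's paired model. Same-numbered libraries deviated together from their group means (Pearson r of 0.197, 0.288 and 0.336 across genes). Between libraries of different number, r ranged from -0.274 to 0.128. Nothing in the labels says how many animals each library holds, so p-values measure the spread between these libraries. On simulated counts for 13348 genes of this comparison, the fit recovered 14.5% of genes changed 2-fold, and 14.7% of its calls were genes that had not been changed. In a second simulation it recovered 53% of genes changed 4-fold, with 10.2% of its calls false, so smaller differences in single genes could be missed. The changed genes were drawn from all genes at their own levels, while most tested members have few counts. In such members, differences above 4-fold could be missed too. Log2 differences within an experiment used a prior count of 2. CPM per kilobase used the exon length in GENCODE vM21, to which all 68 members matched by symbol. The exons that were counted may differ from these. No genome sequence was used, so uniqueness was judged among annotated transcripts and stem-loops were sought within them. Alternatives used DESeq2 1.42.0 and limma 3.58.1. Named members were the 3 highest tested members per class by CPM per kilobase, up to 5 with the largest fitted change in each direction and at least 10 counts in each library of the higher group, and the best-counted member of each cluster. From each list, the 2 genes with the highest CPM were named.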

Additional observations from a re-analysis of the deposited data

How the results depend on the processing

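The number of members called was 0 under each of the 11 alternatives. The lowest adjusted p of any member was 0.0743 (*Hist1h1e*, DESeq2), and *Hist1h1e* ranged from -1.56 to -0.82 on the log2 scale. Over all genes, 176 were called in the reported fit, 1 without the replicate block, 1692 with DESeq2, 1361 with limma-voom, 751 with at least 10 counts in every library, 256 without a filter, 129 with GC and length offsets, and 35 to 782 with an experiment left out. The fit without the replicate block gave 6 members higher and 11 lower. Members higher in LRCs numbered 20 of 53 with DESeq2, 3 of 9 with at least 10 counts in every library, 18 of 53 without a filter, 8 of 17 with GC and length offsets, and 5 to 8 with an experiment left out (8 of 18 without experiment 1). Thinning left 10 members tested, 5 in each direction.

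Of the 16 named members, 10 kept their direction throughout. The sign turned with GC and length offsets for *Hist1h1c* (0.022), *Hist2h2bb* (0.30) and *Hist4h4* (0.33), without the block for *Hist2h2bb* (0.37), with limma-voom for *Hist2h2bb* (0.29) and *Hist2h2be* (-0.23), and with thinning for *Hist4h4* (0.038). With an experiment left out, *Hist1h2bc* ranged from -0.018 to 0.37, *Hist2h2bb* from -1.29 to 0.89, *Hist1h4i* from -0.71 to 2.196, *Hist4h4* from -0.28 to 0.065, *Hist2h2be* from -0.095 to 0.81 and *Slbp* from -0.081 to 0.12. All but *Slbp* turned without experiment 2, *Hist4h4* also without experiment 1, and *Slbp* only without experiment 1. Of list genes, GC and length offsets turned *H3f3b* (0.34), *H3f3a* (0.13), *Eri1* (0.13), *Rbbp7* (0.27), *Nap1l1* (0.034) and *Pcna* (0.14), and *Slbp* was -0.0056 without the block. The cause was not tested.

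Members with 10 counts in some library numbered 29 as deposited and 18 after thinning, 53 had at least 1 count, and 19 reached 0.5 CPM. Without its best-counted member, the mean log2 difference of the class sum moved from -0.33 to -1.45 for H1, -0.75 to -1.46 for H3, -0.69 to -0.34 for H2A, 0.23 to 0.27 for H2B and -0.61 to 0.26 for H4, where it turned. Without experiment 2 the H2B sum turned to -0.0083. In edgeR, *Rrm2* was called with at least 10 counts in every library and without experiment 3, *H2afz* in the first of these and without experiment 2, and *H1f0* without experiment 2, all lower in LRCs. Sums over members at least 50% unique were added after the values were seen. Other lengths of sequence after the gene end were not searched, since no genome was used.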
